A study of Homo sapiens with 6 samples.

Results

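LIPE and 9 other genes that make, coat or empty lipid droplets were followed in HEK293T, a cell line derived from human embryonic kidney and transformed with viral genes that include the large T antigen. The 10 genes are LIPE, PNPLA2, PNPLA3, ABHD5, MGLL, PLIN2, PLIN3, G0S2, DGAT1 and DGAT2, found by Ensembl identifier among the 20169 gene rows of the count table, and all 10 were among the 13103 genes abundant enough to test. LIPE was chosen by its measured difference between the cell lines, and the other 9 for their place in the same pathway, with earlier results of these data known. Their differences between the lines are therefore given as a description, without a test of their own. Polyadenylated RNA was sequenced in 6 libraries from a study of how untranslated regions set gene expression. Of these, 3 came from a line with a PGK landing pad and 3 from a line with a CAG landing pad. A landing pad is a docking site placed in the genome so that a reporter gene can be inserted there. The PGK promoter comes from a glycolysis gene, and CAG is a strong composite of viral and actin elements. All 6 libraries share the HEK293T background, the growth medium and the extraction protocol.

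The design text calls the lines monoclonal, and the labels name no second clone for either promoter. Promoter and clone therefore cannot be told apart in any value here. Whether the 3 libraries of each line were grown as separate cultures is not in the labels, so adjusted p-values measure the spread between samples that may be technical replicates. Total counts ran from 21896246 to 22889708 in the PGK libraries and from 22450538 to 23442542 in the CAG libraries. Of 10 kidney and HEK293T marker genes, 8 were above 1 CPM in every library. Levels are given as CPM, the reads of a gene relative to the size of its library, scaled by TMM.

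Neutral fat is kept in lipid droplets as triacylglycerol, whose last step of synthesis is carried out by DGAT1 and DGAT2. Lipolysis takes the fat apart in steps: PNPLA2 (adipose triglyceride lipase) removes the first fatty acid, LIPE (hormone-sensitive lipase) acts mainly on the diacylglycerol that is left, and MGLL (monoglyceride lipase) frees the glycerol. ABHD5 (CGI-58) activates PNPLA2, G0S2 inhibits it, and the coat proteins PLIN2 and PLIN3 hold lipases off the droplet surface. LIPE is best known from adipocytes, steroid-making cells and the testis, where hormones that raise cyclic AMP switch it on through protein kinase A.

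RefSeq promoter windows, which run from 250 bases before a start to 50 after it, were found for 6 of the 10 genes, with 9 start sites between them. The stretches below show the sequence before the upstream LIPE start beside that of PNPLA2, the lipase acting just before LIPE, and of PLIN2 and G0S2. For each gene the 30 bases nearest before the start that lie in no annotated exon are written 5′ to 3′ on the strand of the gene, with each CG dinucleotide in capitals. Coordinates are those of GRCh38.p14.
LIPE upstream start, chr19:42427427-42427456, minus strand: tatttatgacacaagagagcaagcccctcc
PNPLA2, chr11:818872-818901, plus strand: tccacctctggggcaattatCGggagcagg
PLIN2, chr9:19127577-19127606, minus strand: cCGagggtgacactCGggcttgggacaggg
G0S2, chr1:209675382-209675411, plus strand: gatataagCGgccccCGgaCGctaaagCGg
The stretches end 39 bases before the start for LIPE, 13 for PNPLA2, 85 for PLIN2 and 1 for G0S2. The LIPE stretch holds no CG. By the annotation it lies in an intron of the antisense gene LIPE-AS1, the PLIN2 stretch in an intron of PLIN2 and the G0S2 stretch in an intron of the antisense gene AL031316.1, while the PNPLA2 stretch lies in no gene.

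Over their whole windows the genes differed widely in CG content. The upstream LIPE start had 47.7% GC, 3 CG dinucleotides and a ratio of observed to expected CG of 0.176. The other LIPE start, 3803 bases downstream, had no stretch of 30 bases before it outside annotated exons and is not printed. Its window had 64.7% GC, 24 CG dinucleotides and a ratio of 0.807. PNPLA2 resembled the upstream LIPE start in its ratio, 0.191, with 5 CG dinucleotides, while PLIN2 had 36 and a ratio of 0.818. Across all 35114 promoter windows the median ratio was 0.579, and 7 of the 9 windows of these genes passed both 50% GC and a ratio of 0.6, against 46.8% of all windows. The ABHD5 windows, which all passed, overlap each other and so count partly the same bases. The counts of reads do not tell which LIPE start was used. Searched on both strands, the E-box CACGTG was found in the window of PLIN2 and in no other window of these genes, against 7.26% of all windows. TATAA was found in G0S2 and PLIN2 (20.4% of all windows), and CCAAT in PLIN3 and both LIPE windows (34.6% of all windows). The GC box GGGCGG was present in the PNPLA2, PLIN2 and PLIN3 windows, the downstream LIPE window and every ABHD5 window (45.0% of all windows). A direct repeat of the PPAR type, AGGTCA repeated after 1 base of any kind, was in 0 of the 9 windows and in 0.0228% of all windows. None of these motifs contains another, and a match describes letters only.

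The 4 lipases are LIPE, PNPLA2, PNPLA3 and MGLL. LIPE (ENSG00000079435, chromosome 19) had 0 counts in each of the 3 PGK libraries and 75, 77 and 86 counts in the CAG libraries. In CPM these were 0, 0 and 0 in PGK and 3.33, 3.26 and 3.61 in CAG, a CAG mean of 3.40 ± 0.184 (SD, n = 3). The lines did not overlap, and the 3 CAG libraries lay close together. A count of 0 allows up to 3 counts in a library. At the depth of the PGK libraries this comes to 0.131 to 0.140 CPM, so the CAG mean was at least 25.1-fold higher, or 4.65 on the log2 scale. LIPE passed the low-count filter through the CAG libraries alone, and a gene that does so had to differ. In bulk RNA, fewer cells expressing a gene and less RNA per cell cannot be told apart. The annotation gives LIPE 9 transcripts, and 500 bases of its exons (9.60% of their length) lie opposite exons of LIPE-AS1. The strand setting used for counting was not given in the sources used here, so reads of LIPE and LIPE-AS1 cannot be separated in the LIPE row.

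PNPLA2 (ENSG00000177666, chromosome 11), the lipase of the first step, was the most abundant lipase in both lines. Its levels were 99.7, 92.6 and 110.3 CPM in PGK and 84.4, 86.7 and 86.6 CPM in CAG. All 3 CAG libraries lay below all 3 PGK libraries, and the fitted log2 fold change of CAG over PGK was -0.23 (SE 0.06). An antisense gene, AP006621.1, lies opposite 10.4% of its exon length, so this level is uncertain in the same way. PNPLA3 (ENSG00000100344, chromosome 22), a droplet lipase and acyltransferase named adiponutrin, had 22.4, 23.1 and 24.6 CPM in PGK and 15.7, 14.9 and 15.9 CPM in CAG. The lines were again apart, with a log2 fold change of -0.59 (SE 0.07), or a PGK level 1.51 times that of CAG. PNPLA3 shares 148 exon bases with SAMM50 on the same strand, and SAMM50 itself had a log2 fold change of -0.43.

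MGLL (ENSG00000074416, chromosome 3), the lipase of the last step, was low in both lines and higher in CAG. Its counts were 39, 35 and 26 in PGK and 69, 80 and 87 in CAG, which is 1.82, 1.57 and 1.14 CPM against 3.06, 3.39 and 3.65 CPM. The CAG mean was 2.24 times the PGK mean, with a log2 fold change of 1.16 (SE 0.19). The PGK libraries spread over 22.7% of their mean (SD over mean), the widest spread found for these 10 genes in either line. The lines still did not overlap.

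The regulators of PNPLA2 are ABHD5 and G0S2. ABHD5 (ENSG00000011198, chromosome 3), the activator, had 14.1, 16.1 and 16.1 CPM in PGK and 17.7, 18.7 and 17.3 CPM in CAG. The CAG libraries were all higher, with a log2 fold change of 0.21 (SE 0.08). PGK replicate 1 was the lowest of the 6, and without it the log2 fold change was 0.15. ABHD5 shares 170 exon bases with ANO10 on the other strand, which had a log2 fold change of 0.43, so its level is uncertain. G0S2 (ENSG00000123689, chromosome 1), the inhibitor, was near the lower limit of the data, with 9, 13 and 10 counts in PGK and 13, 17 and 15 in CAG. These are 0.419, 0.584 and 0.438 CPM against 0.577, 0.720 and 0.629 CPM. PGK replicate 2 lay above CAG replicate 1, so the lines overlapped, and the log2 fold change of 0.41 came with an SE of 0.31. At this depth no difference in G0S2 could be told from the spread between libraries. G0S2 met the low-count filter in 1 of 3 PGK libraries and in 3 of 3 CAG libraries.

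The coat proteins were both lower in CAG, by different amounts. PLIN2 (ENSG00000147872, chromosome 9), also called adipophilin, is stabilised by the droplet it coats. It had 36.5, 40.6 and 40.4 CPM in PGK and 19.2, 17.4 and 17.8 CPM in CAG. The PGK mean was 2.16 times the CAG mean, with a log2 fold change of -1.11 (SE 0.07) and a wide gap between the lines. PLIN3 (ENSG00000105355, chromosome 19), also called TIP47, shuttles between the cytosol and new droplets. Its levels were 72.8, 68.5 and 73.5 CPM in PGK and 62.8, 64.5 and 64.1 CPM in CAG, apart but close, with a log2 fold change of -0.17 (SE 0.05). The antisense gene AC027319.1 lies opposite 17.8% of the PLIN3 exon length.

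Of the enzymes that complete triacylglycerol, DGAT2 differed strongly and DGAT1 little. DGAT2 (ENSG00000062282, chromosome 11) had 21.2, 21.0 and 21.1 CPM in PGK and 5.94, 6.53 and 6.63 CPM in CAG. The PGK libraries, with 454, 467 and 481 counts, were almost equal, closer together than counting error alone would usually leave them. Their small SD is thus no measure of precision. None of the CAG libraries came near the PGK libraries. The PGK mean was 21.1 ± 0.0775 CPM, the CAG mean 6.37 ± 0.370 CPM (SD, n = 3), 3.31 times higher in PGK, with a log2 fold change of -1.73 (SE 0.08). Antisense genes lie opposite parts of the DGAT2 exons (117 and 423 bases), so its level is uncertain to that extent. DGAT1 (ENSG00000185000, chromosome 8), an unrelated protein that catalyses the same reaction, had 32.5, 30.5 and 32.1 CPM in PGK and 35.1, 32.7 and 34.8 CPM in CAG. Its lines did not overlap, but the lowest CAG library lay just above the highest PGK library, and the log2 fold change was 0.11 (SE 0.06). DGAT1 shares exon bases with HSF1 on the other strand and with AC233992.1 on the same strand, so its level is uncertain too.

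**Figure D1:**
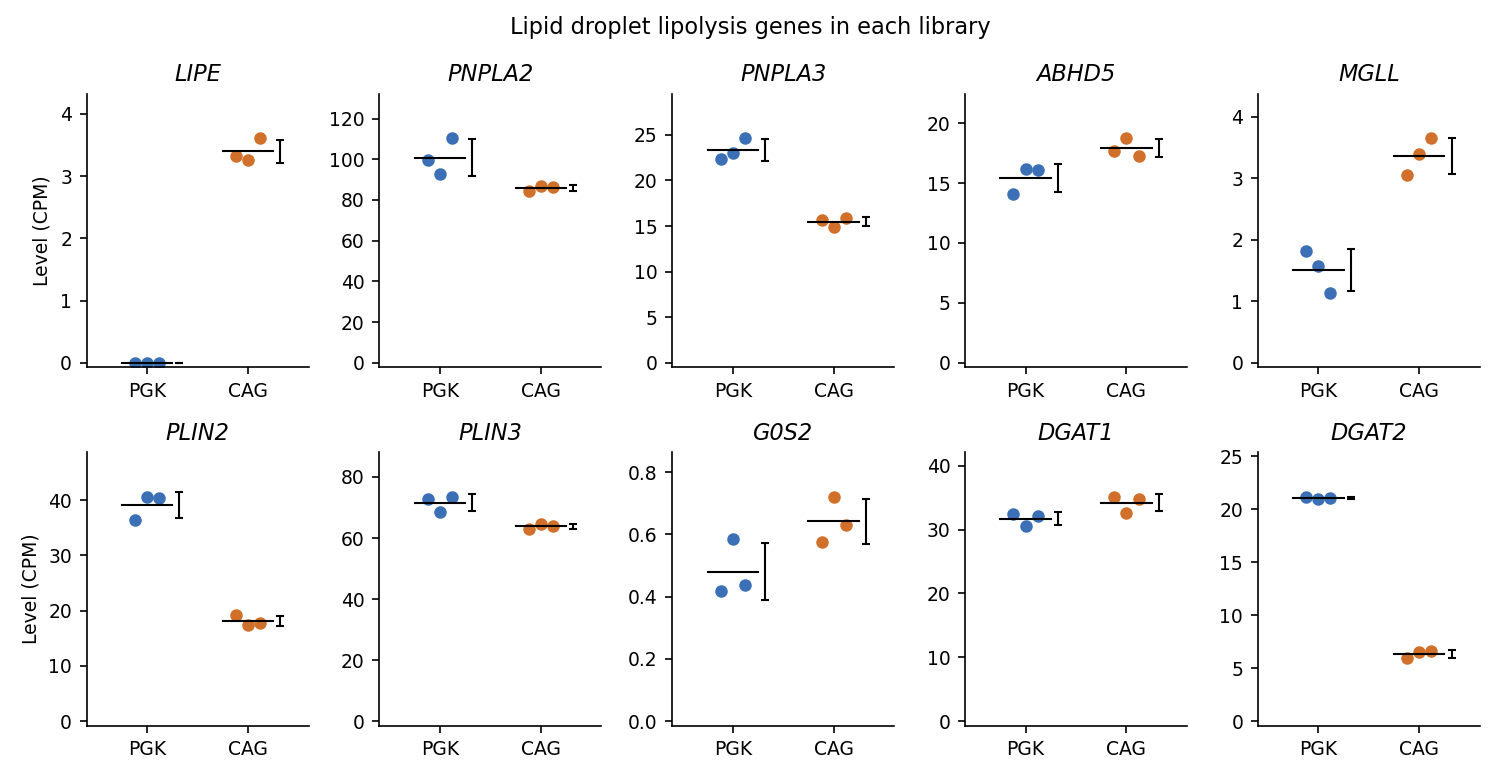
Level in CPM (vertical axes, linear, each from 0) of the 10 genes in each of the 3 PGK (blue) and 3 CAG (orange) libraries, with the mean as a line and the SD as a bar. LIPE sits at 0 in PGK and at 3.26 to 3.61 in CAG, DGAT2 and PLIN2 are lower in CAG without overlap, and G0S2 is the only panel in which the lines overlap.

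In the fit across the whole table (quasi-likelihood test of edgeR, Benjamini-Hochberg adjustment), 62.0% of the 13103 tested genes were called at an adjusted p under 0.05, 31.6% higher and 30.4% lower in CAG. The same calls fell on 8 of the 10 genes: LIPE, ABHD5 and MGLL were called higher, PNPLA2, PNPLA3, PLIN2, PLIN3 and DGAT2 lower, and G0S2 and DGAT1 were not called. The libraries of the lines did not overlap for 9 of the 10, and for 65.5% of all tested genes. Since these values chose LIPE, nothing is read from those counts. The call of ABHD5 was lost with DESeq2, without PGK replicate 1 and without CAG replicate 2. Differences of at least 1.5-fold were found for 5 of the 10 (21.1% of all tested genes) and of at least 2-fold for 4 (8.67% of all tested genes). LIPE, chosen by its difference, is among both, so nothing is read from these counts either. The median log2 fold change was -0.03 over the 10 genes, also with LIPE at its bound, and -0.17 over the other 9, beside -0.00 over all tested genes. The genes did not move in a single direction: the activator and the lipases of the later steps were higher in CAG, while PNPLA2, PNPLA3, both coats and DGAT2 were lower.

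Levels can be set against each other only per length, here as CPM per kilobase of annotated exon. Lengths are those of all annotated exons of a gene together, which can far exceed its longest transcript. PLIN2 has 5086 bases of exon against 1972 in its longest transcript, and MGLL 11849 against 4941. The order between genes depends on the length used, and no other length was tried. In PGK, PNPLA2 (26.2) and PLIN3 (25.4) led and did not differ beyond their spread. PLIN2 (7.70), DGAT1 (7.68) and PNPLA3 (7.22) followed, with ranges that overlapped from each to the next. Below them, without overlap, came DGAT2 (2.67), ABHD5 (2.04), G0S2 (0.555), MGLL (0.127) and LIPE at 0. In CAG the leaders were the same, PLIN3 (22.7) and PNPLA2 (22.3), again overlapping. DGAT1 (8.28), PNPLA3 (4.79), PLIN2 (3.56) and ABHD5 (2.37) then stood apart from each other. DGAT2 (0.805), G0S2 (0.741) and LIPE (0.653) overlapped from each to the next, and MGLL (0.284) was last. On this scale PLIN2, which overlapped DGAT1 in PGK and had no clear order with PNPLA3 there, lay below both in CAG. DGAT2 lay above ABHD5 in PGK and below it in CAG, and LIPE lay below MGLL in PGK and above it in CAG.

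**Figure D2:**
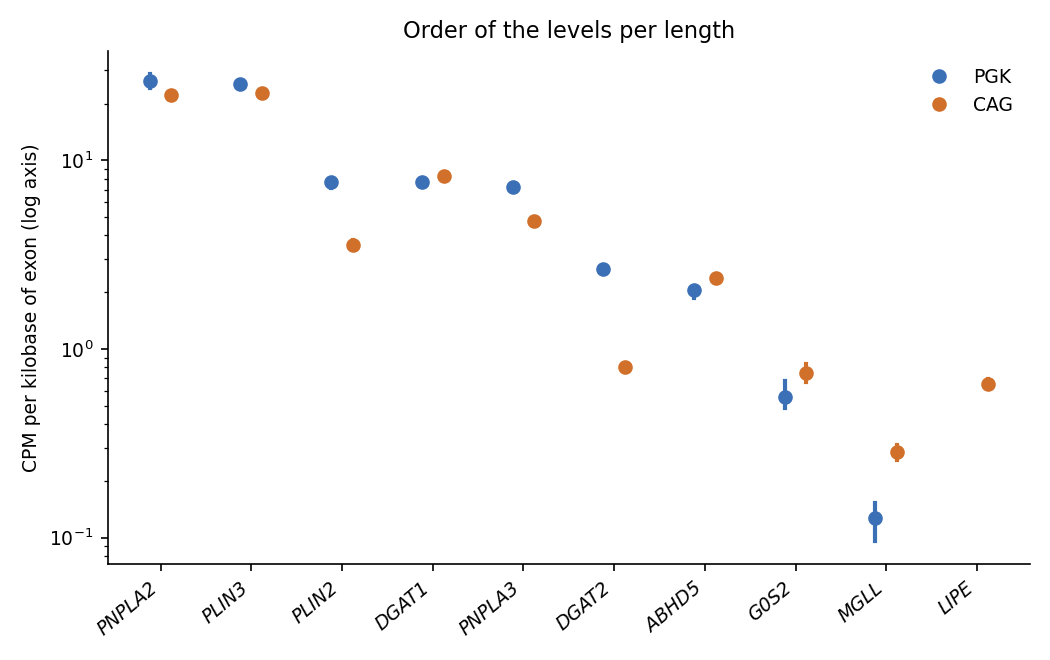
Mean level in CPM per kilobase of exon (vertical log axis) of the 10 genes in PGK (blue) and CAG (orange), with bars from the lowest to the highest library. Genes are ordered by their PGK level, and LIPE has no PGK point because its counts there are 0.

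Within pairs of genes with related roles, the balance differed between the lines without overlap of their libraries. DGAT2 made up 25.8 ± 0.576% of DGAT1 plus DGAT2 per length in PGK and 8.87 ± 0.681% in CAG (SD, n = 3). Every PGK library lay between 25.4% and 26.4%, and no CAG library was above 9.45%. PLIN2 made up 23.2 ± 1.5% of PLIN2 plus PLIN3 in PGK and 13.6 ± 0.785% in CAG. PNPLA2 made up 78.4 ± 1.06% of PNPLA2 plus PNPLA3 in PGK and 82.4 ± 0.586% in CAG, a small difference. Against LIPE, PNPLA2 kept 97.2 ± 0.142% of the sum in CAG. These shares rest on the same counts as the differences above and are no further support for them. Their size also depends on the exon lengths used.

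The genes around each member on its chromosome were read from the order in the annotation, taking the 25 nearest tested genes on each side. Over all tested genes, 31.6% were called higher and 30.4% lower in CAG. For LIPE, the median log2 fold change of its 50 neighbours was 0.50, with 36 called higher and 3 lower in CAG. ABHD5 also lay among genes that were higher, with a neighbour median of 0.48 and calls of 39 higher and 0 lower. PLIN3 (median -0.37, 2 higher and 39 lower) and DGAT1 (median -0.38, 1 higher and 39 lower) lay among genes that were lower in CAG. For comparison, the medians around all placed tested genes had a 5th percentile of -0.42 and a 95th of 0.52, so LIPE, ABHD5, PLIN3 and DGAT1 each lay toward an edge of that range. ABHD5 at 0.21 differed less than its neighbours did, and DGAT1 at 0.11 had the opposite sign to its own. The neighbours of the remaining 6 had medians between -0.10 and 0.04. DGAT2 (-1.73 against a neighbour median of -0.03), PLIN2 (-1.11 against -0.05), MGLL (1.16 against -0.06) and PNPLA3 (-0.59 against 0.04) thus differed among neighbours whose median lay close to 0.

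**Figure D3:**
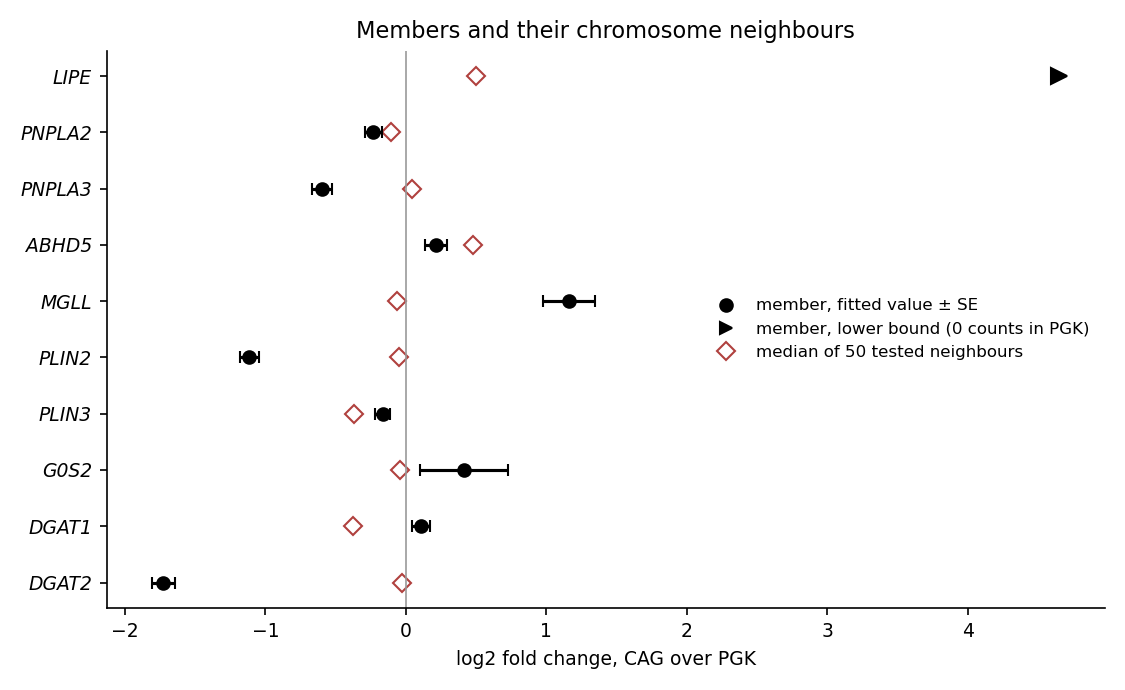
Log2 fold change of CAG over PGK (horizontal axis) for each of the 10 genes (black points with SE, LIPE as a lower bound of 4.65) and the median of its 50 tested chromosome neighbours (open red diamonds). The diamonds of LIPE and ABHD5 lie near 0.5, those of PLIN3 and DGAT1 near -0.4, and the other 6 close to 0.

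The near neighbours of LIPE described here did not share its pattern. In the order of the annotation, PAFAH1B3, PRR19, TMEM145 and CNFN lie close before it, all of them expressed in both lines. TMEM145 fell in CAG, from 9.19 ± 1.83 to 6.76 ± 0.185 CPM, with a log2 fold change of -0.44 (SE 0.12) and an adjusted p of 0.00501. CNFN, the immediate neighbour, was at 0.936 ± 0.212 CPM in PGK and 1.26 ± 0.0622 CPM in CAG, and was not called (log2 fold change 0.43, adjusted p = 0.128). PAFAH1B3 (0.05) and PRR19 (-0.02), which share exon bases on opposite strands, were not called either. On the other side the 5 nearest genes were at or near 0 in both lines: CXCL17 had 1 count in each line, CEACAM1 had 0 in PGK and 1 in CAG, and CEACAM8, PSG3 and PSG8 had 0 counts. From LIPE to LYPD3, the first tested gene on that side, 13 rows were too low to test, and 9 of them had 0 counts in all 6 libraries. In the CAG line LIPE is thus the last tested gene before that stretch.

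**Figure D4:**
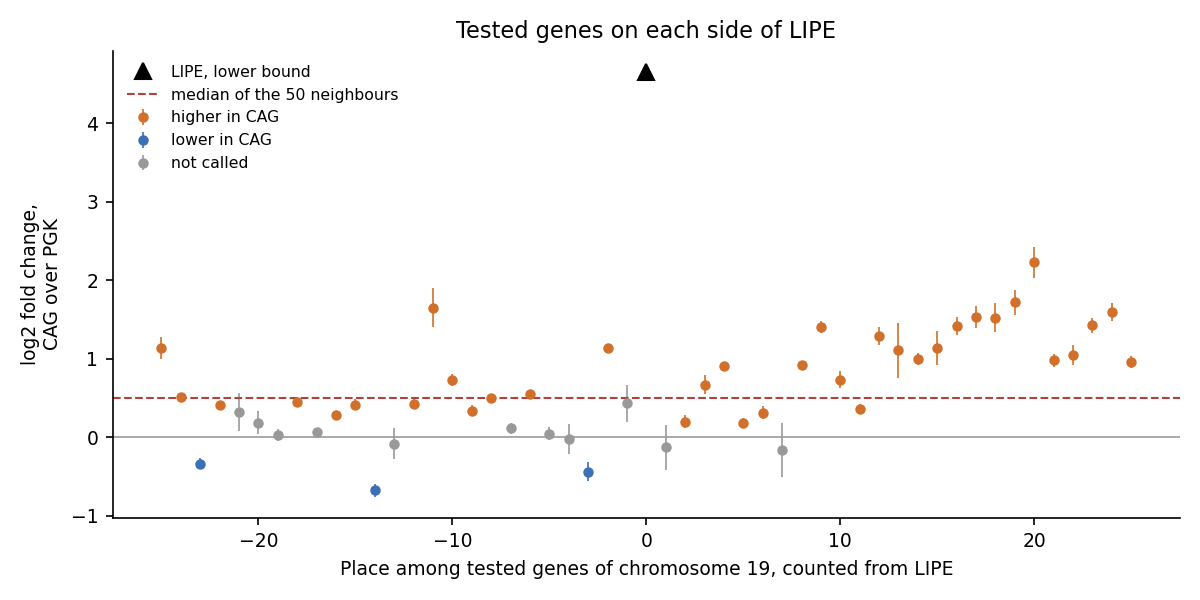
Log2 fold change of CAG over PGK, with SE (vertical axis), for the 25 tested genes on each side of LIPE by their order on chromosome 19 (horizontal axis), coloured by call, with LIPE as a lower bound (triangle) and the neighbour median of 0.50 as a dashed line. Genes after LIPE are mostly higher in CAG, with a median of 1.00, against 0.33 before it.

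The 2 sides of LIPE differed in make-up. The calls below stand beside 31.6% higher and 30.4% lower in CAG over all tested genes. Before LIPE, 13 of 25 tested genes were called higher and 3 lower, with a median log2 fold change of 0.33. After it, 23 of 25 were called higher and 0 lower, with a median of 1.00. Of those 25, 16 are genes named ZNF, which encode zinc finger proteins and mostly follow each other directly from ZNF283 to ZNF227, with ZNF576 and ZNF428 apart from the rest, and all 16 were called higher, by 0.31 to 2.23 on the log2 scale. The 9 others had a median of 0.36, with 7 called higher. This split by name was made after the values were seen. Related zinc finger genes can share or lose reads, and how multi-mapping reads were counted was not given in the sources used here, so the values of single ZNF genes are uncertain.

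A pattern of 0 counts in PGK and more than 1 CPM in every CAG library, for which LIPE was chosen, was found for 8 of the 13103 tested genes, LIPE included, and the reverse for 3. These counts are a description and no support for the LIPE difference. Of the 8, 6 (again with LIPE) had a CAG mean at or above that of LIPE. The 5 genes whose log2 CPM profile over the 6 libraries lay closest to LIPE were MKX, ZFP82, ZNF334, SP140L and SYNDIG1, at Euclidean distances of 0.229 to 0.665 after centring each profile on its mean. MKX, a homeobox factor of tendon, was nearest, with a CAG mean of 3.80 ± 0.222 CPM and 0 counts in PGK, which makes it at least 28.1-fold higher. ZFP82, also on chromosome 19, was at least 20.3-fold higher and SP140L at least 19.9-fold, both from 0 counts. ZNF334 had 1 count in PGK against 307 in CAG, a ratio of 292 with a 95% exact counting interval of 52.0 to 11570. That count was in PGK replicate 1, and without this library only a lower bound would remain. SYNDIG1 had 2 counts against 387, a ratio of 184 (50.6 to 1525). With 3 libraries in each line such likeness rests on the step between the lines, and says nothing of shared function or control.

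A further 7 related gene groups that hold none of the 10 genes were read in the same fit. The first holds the other coat and biogenesis proteins of the droplet: of 19 tested genes, 5 rose and 7 fell in CAG, with a median log2 fold change of 0.04. AIFM2, a droplet-associated oxidoreductase that protects lipids from peroxidation, was at 0.699, 1.03 and 0.789 CPM in PGK and 4.12, 4.45 and 4.32 CPM in CAG, a log2 fold change of 2.35 (SE 0.19, adjusted p = 3.46e-09), and it shares exon bases with a gene on the other strand. LDAH, a droplet hydrolase, rose from 7.36 ± 0.805 to 16.0 ± 0.730 CPM (1.12, SE 0.09). PCYT1A, which makes phosphatidylcholine for growing droplets, fell by 0.75 on the log2 scale and overlaps SLC51A, and FITM2, which partitions fat into droplets, fell by 0.73. Droplet proteins typical of adipocytes were low or absent, with PLIN1 at 1.23 to 1.95 CPM over the 6 libraries and CIDEC at 1 count in all.

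The other neutral lipid hydrolases were split, with 4 of 11 tested genes higher and 3 lower. Their median was -0.04 while their mean was 0.46, of the opposite sign. PNPLA4, a relative of PNPLA2 that acts on retinyl esters and triacylglycerol, had 0.745, 0.360 and 0.657 CPM in PGK and 11.8, 11.7 and 11.0 CPM in CAG. Its log2 fold change of 4.28 (SE 0.17, adjusted p = 1.96e-13) was the largest of any tested gene in the 7 groups. LPL, the secreted lipase of blood lipoproteins, rose from 0.710 ± 0.334 to 1.51 ± 0.270 CPM (1.09, SE 0.29, adjusted p = 0.00323). LIPA, the acid lipase of lysosomes, fell from 93.0 ± 5.34 to 71.9 ± 1.19 CPM (-0.37, SE 0.05) and overlaps IFIT2, and DDHD1, a phospholipase, fell by 0.27 on the log2 scale and overlaps an antisense gene. A patatin-domain lipase (PNPLA4) and LIPE were thus both low or at 0 in PGK and clearly present in CAG. Both were named for the size of their difference, so nothing shared is read from this. MGLL, LPL, DAGLA and ABHD6 were also called higher in CAG, while PNPLA2, PNPLA3, LIPA, DDHD1 and DDHD2 were called lower.

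In glycerolipid and sterol ester synthesis, 3 of 13 tested genes rose and 6 fell, with a median of -0.12. GPAT3, which starts glycerolipid synthesis at the endoplasmic reticulum, rose by a log2 fold change of 0.63 (SE 0.10), and AGPAT4, an acyltransferase of the next step, by 0.50 (SE 0.06). SOAT1, which makes cholesteryl esters, fell from 90.8 ± 4.44 to 67.8 ± 2.56 CPM (-0.42, SE 0.05, adjusted p = 1.94e-06), and AGPAT2 fell by 0.36 on the log2 scale. None of these 4 differed as strongly as DGAT2.

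The protein kinase A and hormone pathway that acts on LIPE and the perilipins moved both ways, with 9 of 23 tested genes higher and 10 lower and a median of -0.08. PRKACB, a catalytic subunit of the kinase, was at 15.3, 15.4 and 15.9 CPM in PGK and 30.7, 33.6 and 35.4 CPM in CAG (1.10, SE 0.07, adjusted p = 3.00e-10). PDE3A, a phosphodiesterase that breaks down cyclic AMP, had 4.52, 5.75 and 5.52 CPM in PGK and 1.24, 1.23 and 1.26 CPM in CAG (-2.08, SE 0.16, adjusted p = 3.49e-09), and an antisense gene overlaps it. ADORA1, an adenosine receptor that lowers cyclic AMP, rose from 0.456 ± 0.267 to 2.69 ± 0.469 CPM (2.56, SE 0.29), with an antisense gene over its exons. ADRB3, the receptor typical of fat cells, had 0 counts in all 6 libraries.

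Genes that take up, bind and activate fatty acids had 5 of 14 tested members higher and 3 lower (median 0.07). SLC27A2, a very-long-chain acyl-CoA synthetase, rose from 5.84 ± 0.996 to 13.3 ± 0.174 CPM (1.18, SE 0.11) and shares exon bases with ATP8B4. ACSL1, a long-chain acyl-CoA synthetase, rose by a log2 fold change of 0.74, while SLC27A3 and SLC27A1 fell by 0.73 and 0.55, both with overlapping genes. In fatty acid beta-oxidation, 13 of 25 tested genes rose and 8 fell, with a median of 0.16. DECR1, an auxiliary enzyme for unsaturated fatty acids, rose from 5.94 ± 0.829 to 12.7 ± 0.502 CPM (1.10, SE 0.10), and CPT1C, a brain-type carnitine palmitoyltransferase relative, rose by 1.14 (SE 0.19). CPT1B, which shares exons with the CHKB-CPT1B readthrough, fell by 0.30.

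Among transcription factors and coactivators of lipid storage, 9 of 20 rose and 5 fell (median 0.11). PPARG, the master factor of fat cell formation, had 16.9, 16.9 and 17.3 CPM in PGK and 33.7, 33.6 and 33.7 CPM in CAG, a log2 fold change of 0.98 (SE 0.06, adjusted p = 2.90e-10). Its libraries hardly varied within a line, less than counting error alone would usually give. The coactivators PPARGC1A and PPARGC1B went opposite ways: PPARGC1A rose from 0.958 ± 0.400 to 2.81 ± 0.326 CPM (1.54, SE 0.23), and PPARGC1B fell from 78.5 ± 2.29 to 50.5 ± 0.581 CPM (-0.64, SE 0.05). MLXIPL, the carbohydrate response factor ChREBP, fell by 0.40 on the log2 scale. Over all tested genes the median was -0.00, with 4139 higher and 3986 lower, and nothing particular to any of the 7 groups is read from these counts.

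**Figure D5:**
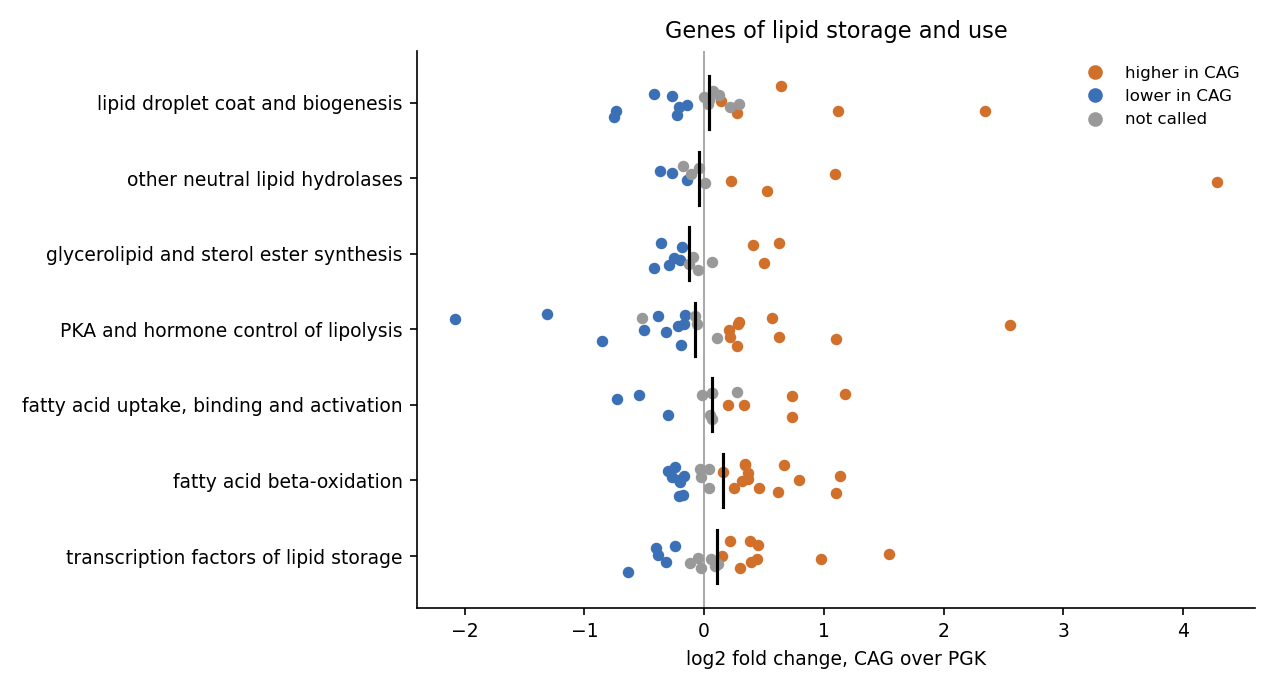
Log2 fold change of CAG over PGK (horizontal axis) for each tested gene of the 7 related gene groups, coloured by call, with the group median as a vertical bar. All medians lie between -0.12 and 0.16, and PNPLA4 at 4.28 is the point farthest to the right.

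Markers of the cell types in which LIPE is best known were mostly absent. The summed level of 13 adipocyte markers was 15.8 to 18.8 CPM in PGK and 15.2 to 16.1 CPM in CAG, most of it CFD. CIDEA, RETN and ADRB3 were at 0 counts in all libraries, and ADIPOQ, LEP, FABP4 and CIDEC each had 1 count in CAG and 0 in PGK. The 10 steroidogenic markers summed to 41.5 to 42.9 CPM in PGK and 40.6 to 43.1 CPM in CAG, nearly all FDX1, with 5 genes at 0 (CYP11B1, CYP17A1, CYP21A2, HSD3B1 and MC2R). NR5A1, the steroidogenic factor, had 5 counts in PGK and 35 in CAG, a ratio of 6.66 (95% exact counting interval 2.60 to 21.8). Like LIPE, NR5A1 passed the low-count filter through the CAG libraries alone, and so had to differ. Any part of NR5A1 in the LIPE difference was not tested. The 13 spermatid and spermatocyte markers summed to 9.82 to 12.4 CPM in PGK and 6.78 to 7.34 CPM in CAG. Nearly all of this came from TSSK6 and LDHC, both above 1 CPM in every library. TSSK6 was called lower in CAG (log2 fold change -0.87, SE 0.13), and LDHC was not called (-0.26, SE 0.16). In this list PRM1, PRM2, TNP1, TNP2, ODF1 and PGK2 were at 0. The 10 macrophage and foam cell markers summed to 2.0 to 2.65 CPM in PGK and 1.82 to 2.22 CPM in CAG, with TREM2 at 0 and CD68 the main contributor. The 10 hepatocyte markers summed to at most 0.755 CPM, with ALB, APOC3 and SERPINA1 at 0. The 10 kidney and HEK293T markers summed to 724 to 745 CPM in PGK and 914 to 964 CPM in CAG, most of it VIM, and PAX8 had 1 count in all.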

How the data were processed

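Polyadenylated RNA of 6 HEK293T libraries was sequenced after a directional library preparation, per the labels' protocols. The authors deposited whole-number read counts per Ensembl gene, not normalized and not pooled. The genome build was hg19 and the tools named are featureCounts 2.0.3, HISAT2 2.2.1, Bowtie2 2.5.1 and cutadapt 4.6, per the submitters' processing notes. What each did, the gene annotation, the strand setting and how multi-mapping reads were counted were not given in the sources used here.

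The 6 columns were matched to samples by name, with 0 left over. Of 20169 rows, 19346 were paired with symbols in GENCODE 29, which is built on GRCh38, so it gave only names, chromosomes, gene order, overlaps and exon lengths. No gene coordinates are printed, and promoter sequences carry the GRCh38.p14 coordinates of RefSeq. Row totals gave 21896246 to 23442542 counts per library. Genes were kept by filterByExpr (at least 10 counts, or 0.440 CPM, in 3 libraries), scaled by TMM and tested with edgeR 4.0.16's quasi-likelihood test in R 4.3.3, two-sided, without covariates, with Benjamini-Hochberg adjustment over all 13103 tested genes and calls at 0.05. Each SE is the log2 fold change divided by the root of its F statistic. The biological coefficient of variation was 0.0494. The fit was also run on simulated counts, with the same spread for every gene and few changed genes. These settings differ from the data, so that run does not vouch for the calls. Libraries of a line differed by more than sampling noise (chi-square per degree of freedom at least 3.42), so none was merged. Floors and counting intervals cover counting error only, since PCR copies are not independent molecules.

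The 10 genes, the 7 lists and the 6 marker lists were chosen with earlier results of these data known. Named genes were the 10, the up to 2 called genes with the largest change in each direction per list (at least 1 CPM on average where higher), the 5 rows on each side of LIPE, and the 5 profiles nearest to LIPE (log2 CPM, prior count 2). Some genes that met this rule are left out of the text. Alternatives were no filter, 1 CPM in 3 libraries, RLE factors, DESeq2 1.42.0, limma-voom (limma 3.58.1), scaling by library size only, a replicate block and leaving out each library.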

Additional observations from a re-analysis of the deposited data

How the results depend on the processing

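Across 7 other settings and 6 fits that left out 1 library each, every direction given for the 10 genes was kept, and the counts of called genes stayed within 1.5 times those reported. Over the fits without 1 library, 3823 to 4086 genes were called higher and 3503 to 3956 lower, and of the 10 genes 2 to 3 were called higher and 5 lower. The bound for LIPE lay between 4.61 and 4.68 on the log2 scale in those fits. G0S2 could not be fitted under the filter of 1 CPM in 3 libraries. The planned scale per length is another unit and was given as the order of levels, with no alternative value.

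Replicate numbers are shared by the lines. Deviations of same-numbered libraries correlated at 0.108, 0.103 and 0.0131, against -0.111 to 0.00988 for libraries of unlike number. The main fit did not pair the samples by replicate number, and whether the number marks a shared batch was not tested. Each PGK library correlated best with the CAG library of its own number. With the replicate number as a block, 4461 genes were called higher and 4400 lower, and of the 10 genes 3 and 5.

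Changes of sign were found for 2 named neighbours of LIPE, neither called in any setting. PAFAH1B3, at 0.05 on the log2 scale, became -0.047 without PGK replicate 2. PRR19, at -0.02, became 0.012 with library size only and 0.011 with limma-voom, and ran from -0.18 without PGK replicate 2 to 0.22 without PGK replicate 3 (0.00063 without CAG replicate 2, 0.02 without CAG replicate 3). The cause was not tested. Depth limits the low genes: G0S2 rests on 32 and 45 counts, and LIPE in PGK on 0.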
